A study of Mus musculus with 14 samples.

Results

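Radial glia and astrocytes of the newborn mouse brain were followed through 10 genes that mark them: Slc1a3, Slc1a2, Aldh1l1, Fabp7, Aqp4, Aldoc, Glul, S100b, Sox9 and Hopx. They were taken by symbol and not by a cut on their levels, but earlier results of these data were known when they were chosen. All 10 were found among the 17927 genes counted. RNA-SEQ, which counts the sequenced RNA fragments that come from each gene, had been run on 14 frozen whole brains at postnatal day 2 (P2) after removal of ribosomal RNA, with 1 brain per library. The study compared WT mice with mice lacking Capn15 (Capn15 KO), a protease of the calpain family, and asked which mRNAs change in abundance without it. The 7 WT and 7 Capn15 KO mice were untreated, belonged to lines made in C57BL/6J, and came from 6 litters. The WT group held 2 females and 5 males, and the KO group held 4 females and 3 males. Litters A, C, D, E and F each gave 1 WT and 1 KO brain, and litter B gave 2 of each. Within each of litters A to E the WT and KO brains were of opposite sex, so genotype and sex cannot be told apart there. In A, B and E the WT brains were male, and in C and D the KO brains were. Both brains of litter F were male, and outside it only the comparison across litters separates genotype from sex. A lacZ-Neo allele and a floxed allele of Capn15 are described for the mouse lines, and which of them the sequenced KO brains carried is not given in the sources used here. The labels put all 14 libraries in 1 batch. The study's methods state 4 samples per sequencing lane, and which libraries shared a lane is not given in the sources used here. The labels also give neurons as the cell type, whereas markers of neurons, glia, vessels and choroid plexus were all counted in every library.

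Radial glia are the stem cells of the embryonic brain, whose long processes guide newborn neurons and which later turn into astrocytes. Around birth, astrocytes begin to take up the glutamate released at synapses, to pass it back to neurons as glutamine, and to move water and ions at the vessel wall. Fabp7, Slc1a3, Hopx and Sox9 are already used by radial glia, while Slc1a2, Aqp4, S100b, Aldh1l1, Aldoc and Glul are known for rising as astrocytes mature. In RNA from a whole brain, fewer cells of a type and less RNA per cell cannot be told apart.

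The start regions of 3 of the genes are printed because the results separate them: S100b varied most between litters, Slc1a3 varied less but past the threshold, and Fabp7 did not pass it. Each window covers 250 bases before and 50 bases after a RefSeq start site on GRCm38.p6. Capitals mark matches, on either strand, to TTGGCA (one arm of the palindrome bound by nuclear factor I proteins, which take part in astrocyte formation) or TGGGAA (the letters read by the Notch effector Rbpj, TTCCCA on the other strand). ACAAAG, a SOX motif, and the full palindrome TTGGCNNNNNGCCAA were searched as well and had no match in these windows. None of these motifs overlaps another in the windows shown.
S100b, chr10:76253586-76253885, plus strand: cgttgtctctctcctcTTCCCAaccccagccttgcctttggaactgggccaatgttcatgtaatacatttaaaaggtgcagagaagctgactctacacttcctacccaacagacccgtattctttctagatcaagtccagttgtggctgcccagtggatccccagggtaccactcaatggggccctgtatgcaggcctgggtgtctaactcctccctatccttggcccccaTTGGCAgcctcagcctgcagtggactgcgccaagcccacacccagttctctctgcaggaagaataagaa
Slc1a3, chr15:8710758-8711057, minus strand: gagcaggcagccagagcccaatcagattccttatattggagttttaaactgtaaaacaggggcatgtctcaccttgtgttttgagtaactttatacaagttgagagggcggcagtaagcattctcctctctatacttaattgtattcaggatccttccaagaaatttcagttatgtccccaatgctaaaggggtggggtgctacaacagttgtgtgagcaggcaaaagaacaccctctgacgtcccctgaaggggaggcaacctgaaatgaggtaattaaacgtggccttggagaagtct
Fabp7, chr10:57784673-57784972, plus strand: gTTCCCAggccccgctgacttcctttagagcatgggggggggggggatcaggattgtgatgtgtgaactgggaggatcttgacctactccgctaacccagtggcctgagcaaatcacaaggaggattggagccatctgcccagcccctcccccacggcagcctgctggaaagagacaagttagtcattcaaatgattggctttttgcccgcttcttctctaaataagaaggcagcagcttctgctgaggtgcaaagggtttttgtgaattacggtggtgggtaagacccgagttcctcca
The S100b window held 1 TTGGCA and 1 TGGGAA, the Slc1a3 window held no match, and the Fabp7 window held 1 TGGGAA. Among 32851 promoter windows of the same length, 14.1% held TTGGCA, 25.6% TGGGAA, 18.7% ACAAAG and 0.0365% the full palindrome. Windows were found for 8 of the 10 genes. The Slc1a2 and Aldh1l1 windows and 1 of the 2 windows of each of Aldoc and Hopx lay within the gene.

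The libraries held between 37620954 and 70910163 counts. Levels are given in CPM, the counts of a gene scaled to 1000000 counts per library with edgeR's TMM factors, and the lowest count of any of the 10 genes in any library was 231. A quasi-likelihood test (edgeR) with genotype, litter and sex in 1 model was run over all 17927 genes, and p-values were adjusted over all of them with the Benjamini-Hochberg method (FDR, threshold 0.05). Capn15 itself lay between 25.0 and 27.3 CPM in WT replicates 1 to 6 and between 12.2 and 14.5 CPM in KO replicates 1 to 6. In litter F the order was turned, with 18.7 CPM in the library labelled WT replicate 7 and 20.2 CPM in the library labelled KO replicate 7. Over all 14 libraries the log2 fold change of Capn15 was -0.81 with an FDR of 0.0747, and directions are therefore also given without litter F. The study, also with sex and litter as variables in edgeR, reports a larger fall of Capn15 that passed, and more mRNAs called. The fit used here did not reach the study's result for Capn15 or its number of calls, and the reason was not tested. The column names give each library its own number within its litter, and the study states the use of 14 brains. Nothing further ties the libraries to separate animals, and the p-values measure the spread between these libraries.

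Between genotypes no difference was called in any of the 10 genes, and outside S100b and Aqp4 every 95% interval lay between -0.11 and 0.14 on the log2 scale. The count at an FDR under 0.05 was 0 of 10, and 0 of 10 also had an unadjusted p under 0.05, where the fit over all genes called 0.00558% (1 gene) by FDR and 5.14% by unadjusted p. DESeq2, limma-voom and edgeR's likelihood ratio test called 0 of the 10 as well. The fitted difference was above 0 for 5 genes and below 0 for 5, and its size had a median of 0.0210 on the log2 scale, against 0.0363 over all genes and 0.0234 over the 10556 genes with a mean of at least 10 CPM. WT and KO libraries overlapped for all 10 genes, as they did for all but 0.00558% of genes. The spread that the model left in each gene had a median SD of 0.0935 (log2) for the 10 genes and 0.0623 for the genes of at least 10 CPM.

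Slc1a3 and Slc1a2 encode GLAST and GLT-1, the transporters by which glia clear glutamate, and Glul encodes glutamine synthetase, which turns it into glutamine. Slc1a3 (ENSMUSG00000005360, chr15:8634124-8710764 on GRCm38, minus strand, 6 exons in its longest transcript) ran from 431 through a median of 529 to 596 CPM in WT and from 475 through 536 to 570 CPM in KO. The KO range lay inside the WT range. Its mean was 519 ± 57.6 CPM in WT and 527 ± 37.7 CPM in KO (SD, n = 7 each), and the log2 fold change was 0.03 with a 95% interval from -0.03 to 0.10. Slc1a2 (ENSMUSG00000005089, chr2:102658659-102790784, plus strand, 11 exons) ran from 216 through 290 to 367 CPM in WT and from 208 through 309 to 367 CPM in KO. The 2 ranges nearly coincided, and in each genotype the lowest library was from litter B and the highest from litter A or F. Slc1a2 had a log2 fold change of 0.01 with an interval from -0.08 to 0.09. Glul (ENSMUSG00000026473, chr1:153899944-153909723, plus strand, 7 exons) ran from 355 through 409 to 444 CPM in WT and from 361 through 400 to 434 CPM in KO. Again the KO range lay within that of WT, and the log2 fold change was -0.01 with an interval from -0.10 to 0.08. The direction of Slc1a2 turned when litter and sex left the model, and that of Glul turned then and without litter F, at values of -0.00371, 0.00019 and 0.0117.

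The balance of the 2 transporters was read as the log2 ratio of Slc1a2 to Slc1a3 counts within a library, which needs no scaling. It was -0.82 ± 0.133 in WT and -0.86 ± 0.194 in KO (SD). The difference of -0.03 had p = 0.725 in a two-sided exact permutation test over the 3432 regroupings of 7 against 7, which cannot give less than 0.000583. These regroupings took no account of litter or sex, so the spread between litters is part of what the difference was set against. Of 7 pairs with the same replicate number, 5 had the lower ratio in KO, with p = 0.469 in an exact sign-flip test whose smallest p is 0.0156.

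Aqp4 encodes the water channel of astrocyte endfeet, the processes that wrap brain vessels. Aqp4 (ENSMUSG00000024411, chr18:15389496-15410982, minus strand, 5 exons) ran from 96.5 through 175 to 246 CPM in WT and from 120 through 162 to 237 CPM in KO. The level was lower in KO in 6 of 7 pairs and higher by 0.43 (log2) in pair 2, whose WT library was the lowest of all 14. The means of 179 ± 53.3 and 171 ± 42.9 CPM (SD) differed by less than either SD, and the log2 fold change was -0.07 with an interval from -0.19 to 0.06. Without WT replicate 2 it was -0.12, and its FDR was 0.404, still above the threshold. Without WT replicate 3 the log2 fold change was -0.04.

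The metabolic genes varied little, with the highest of the 14 libraries 1.22-fold (Fabp7) to 1.29-fold (Aldoc) above the lowest. Fabp7 encodes the brain fatty acid binding protein of radial glia, Aldoc the brain form of aldolase, and Aldh1l1 a folate enzyme used to mark astrocytes. Fabp7 (ENSMUSG00000019874, chr10:57784881-57788450, plus strand, 3 exons) ran from 584 through 644 to 714 CPM in WT and from 599 through 648 to 713 CPM in KO, so the ranges coincided closely. Its log2 fold change was -0.02 with an interval from -0.10 to 0.06. Aldoc (ENSMUSG00000017390, chr11:78322968-78327781, plus strand, 9 exons) ran from 189 through 209 to 224 CPM in WT and from 191 through 212 to 243 CPM in KO. Here KO replicate 3 of litter B and KO replicate 6 of litter E lay above all WT libraries, and the fitted log2 fold change was 0.000149 with an interval from -0.08 to 0.08, its sign turning with the scaling. Aldh1l1 (ENSMUSG00000030088, chr6:90486427-90600203, plus strand, 23 exons) ran from 111 through 116 to 132 CPM in WT and from 105 through 119 to 130 CPM in KO. The log2 fold change was -0.04 with an interval from -0.11 to 0.04. Overlapping gene models on the same strand (Gm44236 and Gm45901) make the level of Aldh1l1 itself less certain, and Gm37310 does so for Slc1a3.

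S100b, a calcium-binding protein of astrocytes that oligodendrocyte lineage cells also make, had the widest interval. S100b (ENSMUSG00000033208, chr10:76253853-76261159, plus strand, 3 exons) ran from 5.76 through 11.9 to 19.3 CPM in WT and from 7.52 through 11.1 to 18.5 CPM in KO. The highest library was 3.36-fold above the lowest in WT and 2.45-fold in KO, and the genotypes overlapped almost fully. The SD was 4.74 CPM in WT and 4.56 CPM in KO, and the log2 fold change was -0.13 with an interval from -0.31 to 0.06 and an unadjusted p of 0.133, the lowest of the 10 genes. The value was -0.05 without KO replicate 4 and -0.21 without WT replicate 5. S100b overlaps Dip2a on the opposite strand, and the strand setting of the counting is not given in the sources used here.

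Sox9 is a transcription factor that starts and keeps glial fate, and Hopx encodes a small homeodomain protein that does not bind DNA itself, known from outer radial glia. Sox9 (ENSMUSG00000000567, chr11:112782224-112787760, plus strand, 3 exons) ran from 13.6 through 15.6 to 16.9 CPM in WT and from 14.3 through 15.2 to 18.8 CPM in KO. The highest value was KO replicate 3 of litter B, and the other KO libraries lay within the WT range. Its log2 fold change was 0.02 with an interval from -0.09 to 0.14. Hopx (ENSMUSG00000059325, chr5:77086988-77115121, minus strand, 3 exons) ran from 15.5 through 17.7 to 19.8 CPM in WT and from 15.8 through 18.2 to 19.4 CPM in KO, which the WT range contained. The log2 fold change was 0.01 with an interval from -0.10 to 0.11, and Hopxos overlaps it on the other strand. Without litter F the fitted values were 0.05 for Slc1a3, 0.00223 for Slc1a2, 0.0117 for Glul, -0.07 for Aqp4, -0.00227 for Fabp7, 0.000176 for Aldoc, -0.03 for Aldh1l1, -0.14 for S100b, 0.06 for Sox9 and 0.02 for Hopx, again with 0 of 10 called.

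**Figure D1:**
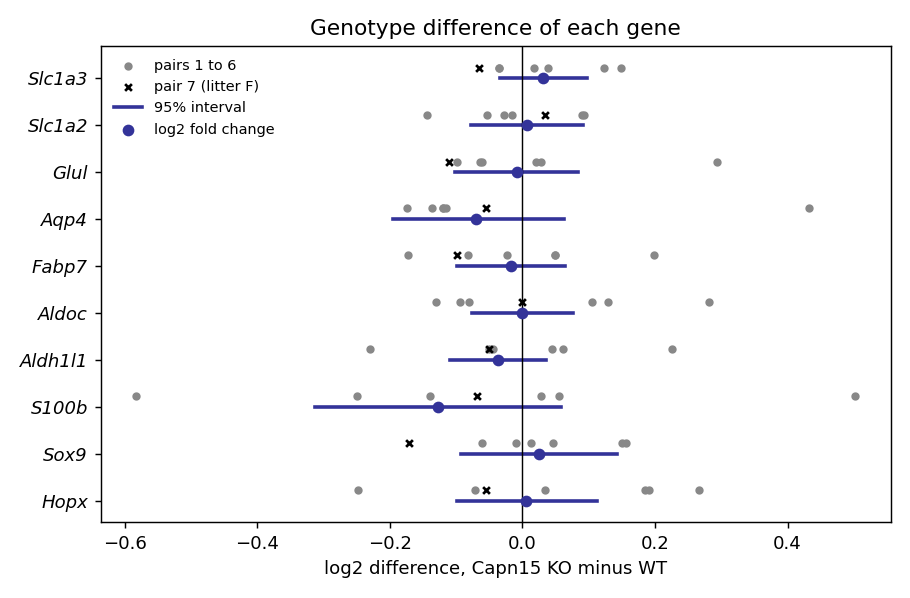
Genotype difference of each gene on the log2 scale (x axis, KO minus WT). Large points are the fitted log2 fold changes, bars their 95% intervals, and small marks the differences of the 7 pairs with the same replicate number, with pair 7 of litter F as crosses; all 10 bars cross 0, and that of S100b is the widest, from -0.31 to 0.06.

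Set side by side per kilobase of exon, the 10 genes ran from 520 down to 3.78 CPM per kilobase. Fabp7 was the most abundant at 520 ± 32.4 CPM per kilobase (SD, n = 14), above 99.8% of all genes counted. Glul followed at 121 ± 7.80, and no library of Glul reached the lowest of Fabp7. Aldoc at 65.2 ± 4.47 and Slc1a3 at 61.3 ± 5.50 were neighbours that overlapped, with Aldoc the higher in 9 of 14 libraries. Aqp4 at 28.1 ± 7.48, Aldh1l1 at 26.5 ± 1.93 and Slc1a2 at 22.5 ± 4.10 overlapped as well, Aqp4 lying above Aldh1l1 in 10 of 14 libraries and Aldh1l1 above Slc1a2 in 13 of 14. Hopx stood at 11.8 ± 0.936 and S100b at 8.32 ± 3.02, with Hopx higher in 13 of 14. Sox9, a transcription factor, was lowest at 3.78 ± 0.309, a level that 48.1% of genes did not reach. S100b lay above it in all 14 libraries, although the ranges touched. At P2 Slc1a3 was thus above Slc1a2 per kilobase of exon in every library, and the cells that gave this RNA were not resolved.

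**Figure D2:**
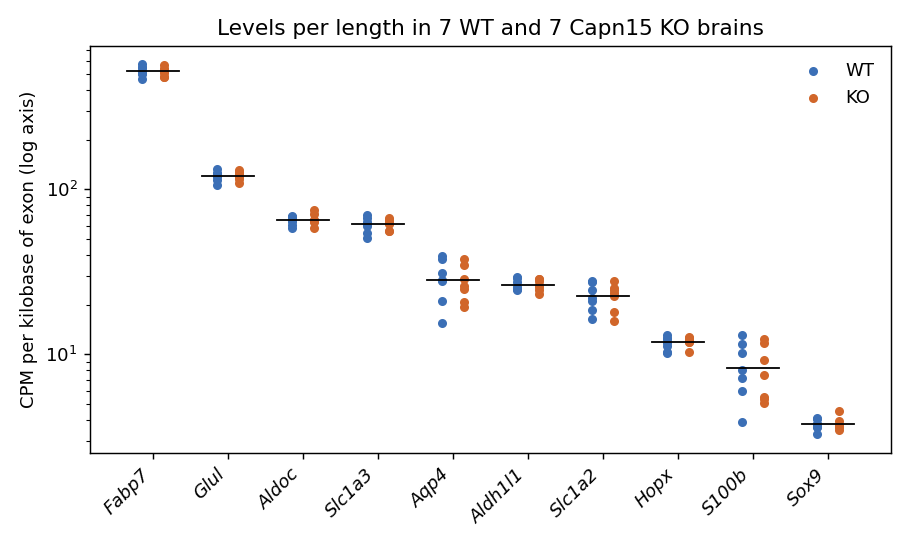
Levels per length of the 10 genes in CPM per kilobase of exon (log axis), with 1 point per library for 7 WT and 7 KO brains and a line at the mean of all 14. Fabp7 lies highest at 520 and Sox9 lowest at 3.78, and WT and KO points overlap for every gene.

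Between litters some of the 10 genes differed, as did many of all genes counted. The share of the 10 that passed was not tested against that of other genes. S100b, Aqp4, Slc1a2, Slc1a3 and Aldh1l1 passed the test of litter, 5 of 10 genes, where 29.6% of all genes and 39.7% of genes of at least 10 CPM passed. The distance between the lowest and highest fitted litter had a median of 0.25 (log2) over the 10 genes and 0.20 over the genes of at least 10 CPM, and single members went well past both. Each of S100b, Aqp4, Slc1a2 and Slc1a3 was lowest in litter B and highest in litter F, with litter A next. For each of these 4 genes the 4 libraries of litters A and F lay above all 10 others, and the 4 libraries of litter B lay below all 4 of A and F.

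S100b had the largest litter difference. Its 4 litter B libraries were at 5.76, 8.94, 8.18 and 7.52 CPM, and its libraries in litters A and F at 17.0, 17.4, 19.3 and 18.5 CPM. Litters C, E and D lay between, with means of 9.93, 10.9 and 14.3 CPM. Between brains of a pair the largest gap was in litter C, where WT had 11.9 and KO 7.95 CPM. The fitted litters were 1.41 apart on the log2 scale, or 2.66-fold (FDR 3.9e-05).

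Aqp4 repeated this order. It was at 96.5, 130, 130 and 120 CPM in litter B and at 235, 216, 246 and 237 CPM in litters A and F, with means of 164, 186 and 168 CPM in C, D and E. The litters did not overlap between these 3 levels. The fitted range was 1.06 (log2), or 2.08-fold, with an FDR of 3.9e-05.

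Slc1a2 lay at 216, 242, 208 and 238 CPM in litter B and at 367, 332, 359 and 367 CPM in litters A and F. The range was 0.67 (log2), or 1.59-fold, with an FDR of 3.9e-05. Slc1a3, the transporter already used by radial glia, varied less, from a mean of 462 ± 21.4 CPM in litter B (SD, n = 4) to 583 ± 18.6 CPM in litter F (n = 2). Its range was 0.33 (log2), or 1.26-fold, with an FDR of 0.00118. The ratio of Slc1a2 to Slc1a3 therefore also moved with litter, from a mean log2 ratio of -1.03 in B to -0.68 in F, or from 0.490 to 0.623 (p = 0.00428 in an exact permutation test over all 945945 partitions of the 14 libraries into litters of these sizes). The ratio of Aqp4 to Fabp7 went from a log2 mean of -2.41 in B to -1.52 in F (exact permutation p = 0.000278). These 2 ratio tests were the only ones of their kind computed and were chosen after the litter values had been seen.

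The other 6 genes were flatter. Aldh1l1 was high in litters A and F, at means of 130 and 128 CPM, and between 114 and 118 CPM in the other 4 litters, with a range of 0.23 (log2) and an FDR of 0.0235. Fabp7, Aldoc, Glul, Sox9 and Hopx had ranges of 0.18, 0.22, 0.18, 0.22 and 0.27 (log2), and none of the 5 passed (FDR from 0.142 for Aldoc to 0.332 for Glul). Sox9 alone among the 10 genes had its highest mean in litter B, 16.7 ± 1.54 CPM, against 14.4 CPM in litter D. Fabp7 had means between 619 CPM in litter C and 701 CPM in litter A.

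Without litter B the litter test still passed for S100b (FDR 0.00486) and Aqp4 (FDR 0.00208), and no longer for Slc1a2 (FDR 0.0669), Slc1a3 (FDR 0.425) or Aldh1l1 (FDR 0.106), while the count over all genes fell from 5301 to 196. Leaving out litter B also removes 4 of the 14 libraries and lowers the power of the test. The lost calls thus do not show that the differences lie in litter B alone. Without litter F the litter test passed for S100b, Aqp4, Slc1a2 and Slc1a3, and Aldh1l1 had an FDR of 0.0771.

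**Figure D3:**
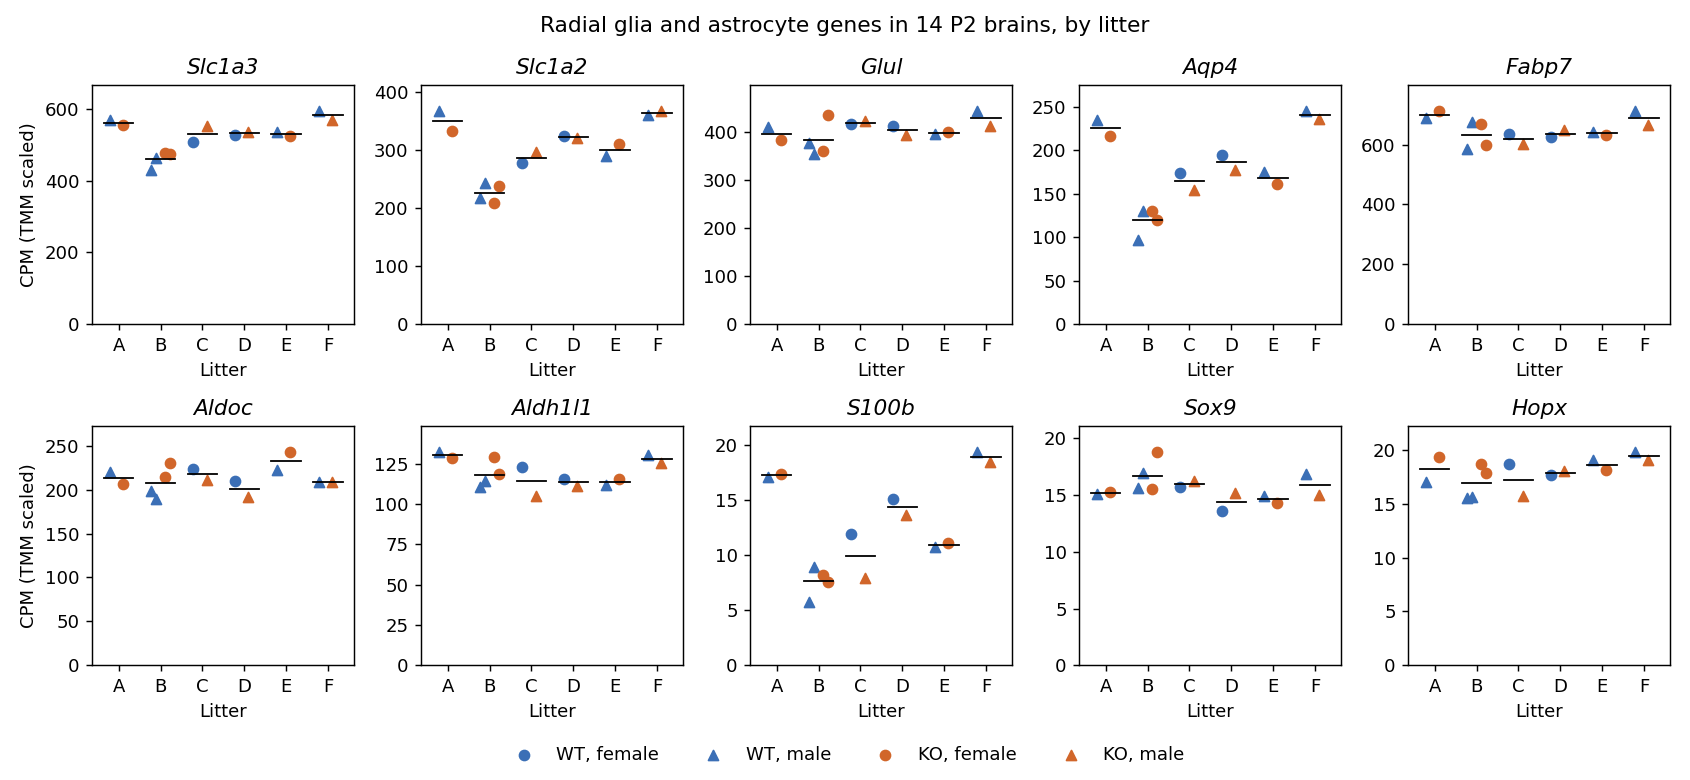
Level of each gene in CPM (y axis from 0) by litter (x axis), with 1 point per brain, blue for WT and orange for KO, circles for females and triangles for males, and a line at the litter mean. In S100b, Aqp4, Slc1a2 and Slc1a3 the 4 brains of litter B lie below the 4 brains of litters A and F, while WT and KO points of a litter lie together in most panels.

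Sex gave no call among the 10 genes (0 of 10 by FDR, 0.0669% of all genes). Of the 10, 4 had an unadjusted p under 0.05 and all 4 were lower in males in the model (5.04% of all genes had such a p, and 2.41% had it with a lower level in males). These were Aldh1l1 at -0.11, Aldoc at -0.11, Hopx at -0.13 and S100b at -0.20 (log2, males minus females), each with an FDR of 0.927. Means before adjustment for litter and genotype were 118 CPM in males and 122 CPM in females for Aldh1l1, 207 and 221 CPM for Aldoc, and 17.5 and 18.4 CPM for Hopx. For S100b the unadjusted mean was higher in males, 12.7 against 11.8 CPM. In pairs 1 to 6 the brains were of opposite sex.

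Beyond the 10 genes, further lists of the same biology were read from the same fit. Between genotypes 0 genes of any list passed. Among 28 genes of maturing astrocytes, 2 had an unadjusted p under 0.05 and were higher in KO, the metallothioneins Mt1 (0.19) and Mt3 (0.14). Another 4 were lower, among them the gap junction genes Gja1 (-0.13) and Gjb6 (-0.17) and the amino acid transporter Slc7a10 (-0.18). All are on the log2 scale with an FDR above 0.05. The median of the maturing astrocyte list was -0.01, against 0.00153 over all genes. Over all genes, 5.14% had such a p in either direction, and 2.26% had it with a lower level in KO. The counts of the lists that follow stand beside the same shares, and no list was tested against them. Among 22 radial glia genes 1 had such a p, the transcription factor Lhx2 (0.14), and the median was 0.01. Among 14 gliogenic transcription factors Nfib (0.08) and Nfix (0.10) did, and among 14 genes of glutamate and glutamine handling the cystine transporter Slc7a11 (-0.13) and the vesicular transporter Slc17a6 (-0.06) did. In the list of the dystrophin complex and endfeet, to which Aqp4 is anchored, Aqp1 (-0.25) and Sntb1 (-0.18) did. Aqp1 is also a gene of choroid plexus, of whose 6 markers 5 were lower in KO at an unadjusted p under 0.05 with a median of -0.22, and the part of that tissue in the Aqp1 value was not tested.

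Between litters, genes of both the astrocyte and the radial glia lists passed, and the difference between the lists was not tested. Of the 28 genes of maturing astrocytes 21 passed (75%), beside 29.6% of all genes and 39.7% of genes of at least 10 CPM. Of these 21, 20 had their lowest level in litter B. Examples are Ntsr2, a receptor gene of astrocytes, 1.37 (log2) higher in litter F than in B, and Gfap, their intermediate filament, 1.07 higher in litter A than in B. The water and ion genes Mlc1 and Kcnj10 were 0.50 and 0.58 higher in F. Of the 22 radial glia genes 16 passed (72.7%, beside the same shares), with 10 of them highest and 4 lowest in litter B. Gli3, a Hedgehog pathway factor, stood at -0.65 in F relative to B, and the filament genes Nes (-0.27) and Vim (-0.25) and the matrix gene Tnc (-0.30) were lower too. Others went the opposite way, among them the endothelin receptor gene Ednrb (0.36 in F) and Ttyh1 (0.25 in F), and Ptprz1 (0.34) and Ddah1 (0.25) in A. The summed level of the radial glia list had means of 2448 CPM in B, 2506 CPM in A and 2475 CPM in F, and that of the maturing astrocyte list 3423, 4164 and 4582 CPM. Among all genes that passed, 49.5% had their lowest and 40.6% their highest level in litter B. Of 14 gliogenic transcription factors 9 passed, 5 of them highest and 0 lowest in B, among them Nfib (-0.45 in F). Sox8 (0.29) and Sox10 (0.71), both relatives of Sox9, were higher in F than in B.

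Lists close to single members are given beside the 29.6% of all genes, and 39.7% of genes of at least 10 CPM, that passed the litter test. Of the other glutamate genes 7 of 14 passed, 6 of them lowest in B, including the neuronal transporter Slc1a1 (0.16 in F relative to B) and Slc7a11 (0.49). In a list of 8 that holds other S100 genes and the binding protein gene S100pbp, 4 passed, all lowest in B, with S100a1 at 0.89 and S100a16 at 0.72 in F. In glycolysis 7 of 14 passed, all lowest in B, with Aldoa at 0.41, although a second gene model with the symbol Aldoa makes its count uncertain and Aldoc itself did not pass. Fabp3 passed (0.37) and Fabp5, a relative of Fabp7, did not (0.10). Of 11 folate enzymes 1 passed. In the endfoot list 4 of 10 passed, among them Dtna (0.29) and Slc16a1 (0.73) lowest in B and Aqp1 (-0.47) highest.

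**Figure D4:**
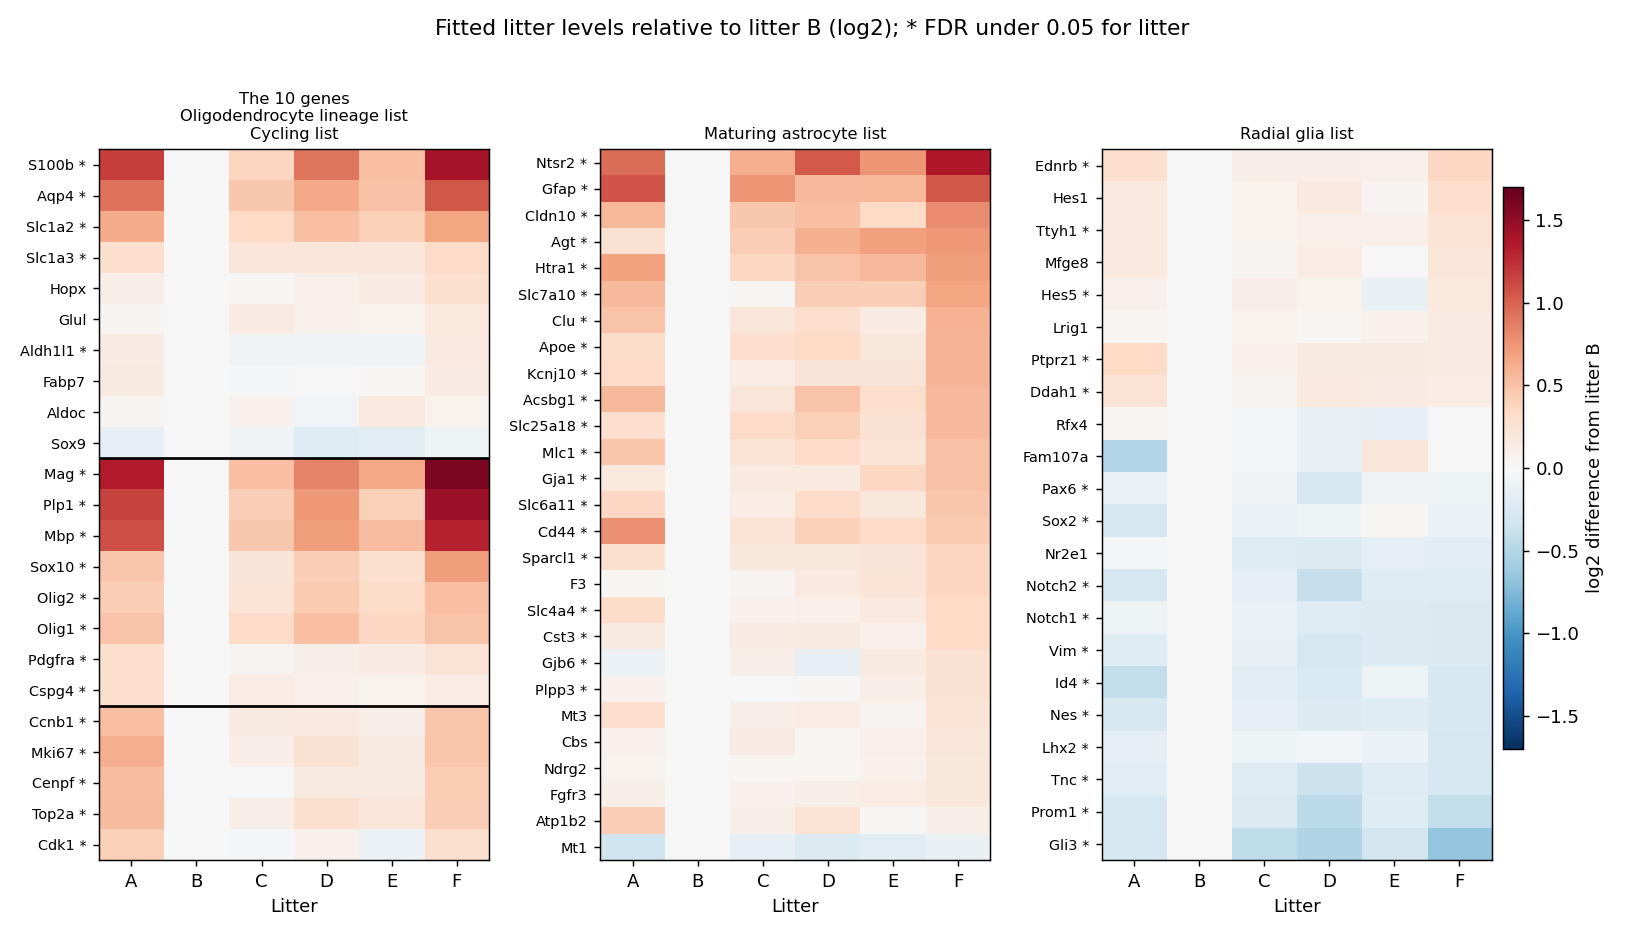
Fitted level of each gene in litters A to F relative to litter B (log2, colour scale from blue, lower, to red, higher), with an asterisk where the litter test passed. The left panel stacks the 10 genes, the oligodendrocyte lineage and the cycling genes, the middle panel shows genes of the maturing astrocyte list and the right panel the radial glia list; S100b, Aqp4 and Slc1a2 are red in litters A and F like most genes of the middle panel, while the right panel is mixed, with Ednrb red and Gli3 blue in litter F.

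Markers of other cell types were read beside the same shares. All 8 oligodendrocyte lineage markers passed and all 8 were lowest in litter B, with Mag at 1.60 and Mbp at 1.31 in F relative to B, and their summed level ran from 347 to 386 CPM in litter B and from 542 to 601 CPM in litters A and F. All 5 cycling genes passed, with sums from 183 to 202 CPM in B and from 256 to 289 CPM in A and F. All 5 red cell genes passed and were highest in B, from 197 to 322 CPM in sum, against 31.0 to 35.4 CPM in litter D. Of the 6 neuronal markers 5 passed, 4 lowest in B, while Dcx, a gene of young neurons, was highest there (-0.56 in F) and Tubb3 had an FDR of 0.988. Their sum lay between 4835 and 5126 CPM over all libraries, and that of the 10 genes between 2052 and 2755 CPM. In the remaining lists the litter test passed for 2 of 6 microglia, 4 of 5 endothelium, 4 of 6 choroid plexus, 3 of 5 ependyma, 2 of 5 meninges, 1 of 4 cartilage and 2 of 5 Schwann and olfactory ensheathing genes, several of them at or near the share of all genes. No listed gene was at 0 in any library. The part of these other cell types in the litter values of the 10 genes was not tested.

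Over the 14 libraries the mean of the 10 genes, each scaled to unit spread, was lowest in WT replicate 2 of litter B (-1.37) and highest in the library labelled WT replicate 7 of litter F (1.16). The genes of at least 1 CPM whose log2 CPM followed this mean most closely were Fbxo2 (Pearson's r = 0.946), St3gal6 (0.940), Slc39a12 (0.938), Kank1 (0.937) and Gramd3 (0.935), taken as the 5 highest of 15217 candidates. The libraries share litters and each gene's litter order, so these values describe likeness over 14 brains only.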

How the data were processed

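RNA-SEQ counts of 7 WT and 7 Capn15 KO brains at P2 were used. Per the study's methods and the labels' processing notes, the authors trimmed reads with Trimmomatic, aligned them to GRCm38 with STAR and counted them per gene. The methods name HTSeq-count and the ScriptSeq kit, whereas the labels name featureCounts and a stranded TruSeq kit. The deposited counts are not normalized. The annotation, the strand setting and the rule that left 17927 genes are not given in the sources used here, and 0 columns of values were left unused. The labels gave the genotype, whereas the names of the count columns gave the litter and sex of each brain. The labels' batch is the same for all libraries, and the sequencing lane of each library is not given in the sources used here.

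The tests used edgeR 4.0.16 under R 4.3.3 (TMM factors, quasi-likelihood test with default settings, all genes with at least 1 count, model of genotype, litter and sex, Benjamini-Hochberg adjustment). Standard errors and 95% intervals are from limma 3.58.1, fitted to log2 CPM (prior count 2) with the same model, whose estimates lay within 0.00413 of edgeR's for the 10 genes. Levels per kilobase used exon lengths from GENCODE M21 on GRCm38, in which 17915 identifiers were found. Figures were drawn with matplotlib 3.10.9. On simulated counts for 17927 genes the genotype test recovered 190 of 200 changed genes with 14 false calls (100 of 100 at a log2 change of 1, 90 of 100 at 0.5), and the litter test 195 of 200 with 15. The simulated counts had no litter or sex differences apart from the planted ones and no label in doubt. Genotype changes smaller than 0.5 were not simulated. The recovery therefore does not give the power of the tests in the real libraries.

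Same-numbered WT and KO libraries come from the same litter by the column names. Their deviations correlated between -0.47 and 0.44 (mean 0.12, 15227 genes). No pair of libraries agreed within sampling noise (lowest chi-square per gene 4.66). At these depths the 3 counts taken as a floor correspond to 0.0423 to 0.0797 CPM, a limit of counting error only.

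The genes named are Capn15, the 10 genes, their relatives, genes of the lists that passed a test or had the smallest p, and the 5 genes most alike. The 10 genes and the lists were chosen with earlier results of these data known. Ftcd, Matn1, S100g, S100z, Pmp2 and 6 further fatty acid binding protein genes of the lists were not analysed here, and the values of some genes that stay in every fit and count are not reported here. Of 24 other settings, 1 (without litter B) and both tests of ratios between litters were added after the data had been seen. They included DESeq2 1.42.0, limma-voom, other scalings, a filter on low counts, other covariates and each library left out in turn.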

Additional observations from a re-analysis of the deposited data

Results flagged for a closer look

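In 3 of 24 groups of 7 libraries (Capn15, the 10 genes and the ratio of Slc1a2 to Slc1a3, each in WT and in KO), 1 library stood apart from the others of its group by the gap to its nearest neighbour over the whole range, above the limit of 0.568 that Dixon's test sets for 7. Chance would give about 1.2 such groups. For Capn15 in WT it was the library labelled WT replicate 7, the lowest at a log2 CPM of 4.23 with the next at 4.64 (0.761 of the range). For Capn15 in KO it was the library labelled KO replicate 7, the highest at 4.34 with the next at 3.87 (0.647 of the range). Both are of litter F. For Hopx in KO it was KO replicate 4 of litter C, the lowest at 3.98 with the next at 4.17 (0.615 of the range), and without it the genotype difference of Hopx was 0.05 on the log2 scale.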

How the results depend on the processing

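In each of the other settings run, 0 of the 10 genes were called between genotypes (14 settings that leave out 1 library and 10 others) or sexes (14 and 9). The number of all genes called between genotypes, 1, became 0 without scaling factors (883 at an unadjusted p under 0.05), 0 with a replicate block in place of litter (811) and 0 without litter B (1333), and 22 with DESeq2, 34 with the likelihood ratio test, 7 without litter F and 0 to 7 without single libraries. The replicate block, the pairing by number, changed no call among the 10 genes. Genes called for litter fell from 5301 to 196 without litter B and lay between 3626 and 5770 without single libraries, and of the 10 genes those called for litter fell from 5 to 2 without litter B and lay between 4 and 6. Fabp7 passed the litter test with DESeq2 alone (FDR 0.0470). Over the 14 settings without a single library, Aldoc stayed above the threshold for litter in 12 and Glul in 13, with lowest FDRs of 0.0367 and 0.0244. Aldh1l1 kept its call for litter in 12 of these 14, with FDRs up to 0.0623. Genes called for sex, 12, became 19 with DESeq2 and 36 with the likelihood ratio test, and 11 to 16 without single libraries. Genotype differences near 0 changed sign: Slc1a2 (-0.00371) and Glul (0.00019) with genotype alone, Glul without litter F (0.0117), Aldoc with RLE factors (-0.00107), no factors (-0.00216), DESeq2 (-0.00109), voom (-0.000298) and without litter B (-0.0349), Sox9 (-0.00402) and Hopx (-0.0323) without litter B, and Glul by sex without litter B (0.00996). The cause was not tested. Leaving out single libraries moved S100b between -0.206 and -0.0453, Aqp4 between -0.116 and -0.0446, Aldh1l1 between -0.0719 and -0.00396, Fabp7 between -0.0505 and -3.33e-05 and Slc1a3 between 0.00200 and 0.0494 by genotype, and gave ranges that cross 0 for Slc1a2 (-0.0107 to 0.0297), Aldoc (-0.0184 to 0.0276), Glul (-0.0411 to 0.0117), Sox9 (-0.0153 to 0.0613) and Hopx (-0.0553 to 0.0523) by genotype, for Slc1a3 (-0.0178 to 0.0363), Fabp7 (-0.0562 to 0.00581), Glul (-0.0648 to 0.00601) and Sox9 (-0.0169 to 0.0662) by sex, and for the ratio of Slc1a2 to Slc1a3 (-0.0676 to 0.0267). Of single values of the 10 genes, 200 of 240 kept their direction and call by genotype, 210 of 220 by litter and 221 of 230 by sex. Litters of 2 brains limit what the litter means can show.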
